A study of Drosophila melanogaster with 3 samples.

Results

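The vacuolar H+-ATPase (V-ATPase) genes of Drosophila melanogaster were taken as the protein-coding genes whose symbol in the release 6 annotation begins with Vha, which gave 33 of the 13968 protein-coding genes on the chromosome arms. By the sector of the pump that each product belongs to, 13 encode V1 subunits, 18 encode V0 subunits and 2 encode accessory subunits. From general knowledge of these genes 15 were classed as broadly expressed, 13 as restricted to a few tissues, and 5 were left unassigned. No value of the deposited data entered the classes, but they were drawn up with earlier results of these data known. The data were anti-GFP ChIP-seq peak lists for svp, the fly member of the COUP-TF nuclear receptors. The animals were transgenic flies with GFP fused to the C terminus of svp, collected whole as white prepupae, the stage that opens metamorphosis, with males and females pooled. The 3 samples were biological replicates of that single group, and chromatin was sheared by sonication. No GFP-free sample was used here, so binding of the tagged protein and open chromatin taken up by any antibody cannot be told apart. In whole animals the tissue behind a peak is unknown, and a peak present in few cells cannot be told apart from a weak peak present in many.

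The V-ATPase is a rotary proton pump. Its V1 sector hydrolyses ATP in the cytosol and its membrane-embedded V0 sector carries protons, which acidifies lysosomes, endosomes and secretory vesicles and energises epithelia such as the Malpighian tubule and parts of the midgut. Many subunits are encoded in flies by a broadly expressed gene and additional paralogues with narrower expression. Genes of the lysosome and of the V-ATPase are known targets of the MiT/TFE factors, of which flies have a single member, Mitf, and these factors recognise CLEAR and M-box sequences.

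An IDR-thresholded summit lay at most 1000 bp from an annotated transcription start site (TSS) at 7 of the 33 Vha genes (21.2%, exact 95% binomial interval 8.98 to 38.9%), and at 16.1% of all 13968 protein-coding genes. The interval counts genes as if they were independent, holds no spread between replicates, and is not a test against all genes. IDR, the irreproducible discovery rate, is a measure of how well ranked peaks agree between replicates, and the thresholded list was the 5443 highest peaks of the pooled list, not all of which had a peak in each replicate. The 7 genes were Vha100-2, Vha14-1, VhaAC39-1, Vha16-1, Vha55, VhaAC45 and Vha13, and every one of them is in the broadly expressed class. Counting gene bodies as well gave the same 7 genes, beside 20.3% of all genes. Their 8 summits, of which Vha14-1 had 2, carried signal values from 123 to 1280, with a median of 184 against 239 over the 2365 IDR-thresholded summits within 1000 bp of any protein-coding TSS. The signal value is the authors' score of a peak, whose scaling is not stated, and is used here to rank peaks within a list.

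The sequences at the summits show what DNA lay under the peaks, and 4 are given for genes of the 3R and X arms from the RefSeq release 6 sequence, plus strand. Capitals mark a GATA match, which read on this strand is TTATC. The Vha100-2 stretch is chr3R:18397247-18397275, kept short because it lies in an annotated 5′ UTR of the neighbouring gene Vti1b, and it was chosen as the highest summit of the set. The other 3 are windows of 101 bp centred on the summit, at chr3R:12628470-12628570 (Vha55), chr3R:19644485-19644585 (Vha13) and chrX:3881076-3881176 (VhaAC39-1).
Vha100-2: atcttcagcttTTATCactgagcggagcg
Vha55: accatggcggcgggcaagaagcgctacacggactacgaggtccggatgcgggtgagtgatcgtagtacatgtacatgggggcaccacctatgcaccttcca
Vha13: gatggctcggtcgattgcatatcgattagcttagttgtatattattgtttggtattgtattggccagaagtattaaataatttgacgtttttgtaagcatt
VhaAC39-1: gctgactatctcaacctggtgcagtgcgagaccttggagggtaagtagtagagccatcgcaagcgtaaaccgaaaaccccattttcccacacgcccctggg
The 101 bp centred on the summit held 59.4% G and C at Vha55, against 55.4% at VhaAC39-1, 39.6% at Vha100-2 and 32.7% at Vha13. At Vha100-2 this window is longer than the stretch shown.

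M-box-like sites (TCATGTGA, either strand) lay in the promoters of 4 Vha genes and are shown in capitals for the pair on 3L and 3R, with the 20 bases before them on the gene's own strand. In VhaM9.7-b, which encodes a small V0 subunit e, the match began 22 bp after the TSS, at the end of chr3L:21539864-21539891. In VhaPPA1-1, which encodes the V0 proteolipid c″, it began 34 bp after the TSS, within chr3R:14904020-14904047. Neither gene had an IDR-thresholded summit.
VhaM9.7-b: tgctgcatgggacatgtccgTCATGTGA
VhaPPA1-1: actgatagagaaaatgtacgTCATGTGA

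Among the V0 genes, the highest summit was at Vha100-2, which encodes the broadly expressed form of subunit a, the large membrane subunit that forms the proton half-channels. The peak at chr3R:18397018-18397505 had a signal value of 1280 and ranked 79 in the IDR-thresholded list. Its signal value was 391 in replicate 1 (rank 82), 516 in replicate 2 (rank 80) and 380 in replicate 3 (rank 86). The ranks of the 3 replicates thus lay within 10 places of each other, and the replicate summits lay 1 to 22 bp from the combined one. The summit was 333 bp upstream of the internal TSS of Vha100-2, in an intron of its longer transcript, and 266 bp from the TSS of Vti1b, a SNARE gene read in the opposite direction. Of the 2 genes, Vti1b therefore had the nearer start, and peak lists alone do not assign the summit to either. Vha100-4, another subunit a gene that starts 517 bp past the 3′ end of Vha100-2, had no peak within 1000 bp of its TSS in the pooled list or in any replicate.

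VhaAC39-1, which encodes subunit d, the link between the V0 ring and the central stalk, had a summit 378 bp inside the gene, in an intron, at chrX:3880898-3881353. The signal value was 266 in the IDR-thresholded list, and 68.5 in replicate 1 (rank 2490), 125 in replicate 2 (rank 2002) and 64.9 in replicate 3 (rank 2780). All 3 replicates placed it among their top 5000 peaks, and the nearest TSS of another gene, CG15239, was 3042 bp away. Vha16-1, which encodes the proteolipid c of the proton-carrying ring, had a summit 136 bp upstream of an internal TSS, in an intron, at chr2R:6632292-6632747. The signal value was 224 in the IDR-thresholded list, and 75.0 in replicate 1 (rank 2206), 119 in replicate 2 (rank 2139) and 35.2 in replicate 3 (rank 5791). Replicate 3 was the lowest of the 3 and fell outside its top 5000. Vha16-1 is 7849 bp long, and further peaks lay in its introns, more than 1000 bp from a TSS. The highest of these in the pooled list had a signal value of 115 and rank 5653, just past the 5443 pooled peaks that make up the IDR-thresholded list.

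Among the V1 genes, Vha14-1, which encodes subunit F of the central stalk, had 2 summits. The higher, at chr2R:15679058-15679361, had a signal value of 566 and rank 578, with 160 in replicate 1 (rank 636), 203 in replicate 2 (rank 850) and 202 in replicate 3 (rank 379). It lay 909 bp from the TSS, past the 3′ end of this gene of 659 bp, and 219 bp from the TSS of Gmppa, a gene of GDP-mannose synthesis. The lower, at chr2R:15679978-15680433, lay 122 bp upstream of the Vha14-1 TSS with a signal value of 136. Replicate 1 had no peak there, while the signal value was 100 in replicate 2 (rank 2766) and 27.7 in replicate 3 (rank 7439). The peak nearer to Vha14-1 itself was thus the weaker of the 2 and was not found in every replicate.

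Vha55, which encodes the V1 subunit B that alternates with the catalytic subunit A in the head of the pump, had a summit 691 bp upstream at chr3R:12628292-12628747. The signal value was 144 in the IDR-thresholded list, and 35.5 in replicate 1 (rank 5452), 73.1 in replicate 2 (rank 4173) and 57.4 in replicate 3 (rank 3296). This summit lay in coding sequence of the neighbouring sorting nexin gene Snx3 and was nearer to the Snx3 TSS, at 489 bp. Vha13, which encodes subunit G of the peripheral stalk, had a summit 149 bp upstream at chr3R:19644307-19644762, the weakest of the 8, with a signal value of 123 and rank 5313. No peak was listed there in replicate 1, and the signal value was 40.9 in replicate 2 (rank 7973) and 45.1 in replicate 3 (rank 4378).

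Of the accessory subunit genes, VhaAC45 had a summit and VhaAC45RP had none. VhaAC45, which encodes a glycoprotein associated with V0, had its summit 924 bp after the TSS, in coding sequence, at chr2R:9208257-9208712. The signal value was 138 in the IDR-thresholded list, and 35.6 in replicate 1 (rank 5429), 78.3 in replicate 2 (rank 3824) and 28.6 in replicate 3 (rank 7190). It was the summit farthest from a TSS among the 8, and the nearest members outside the limit of 1000 bp were Vha44 at 1374 bp and Vha68-1 at 1406 bp.

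**Figure D1:**
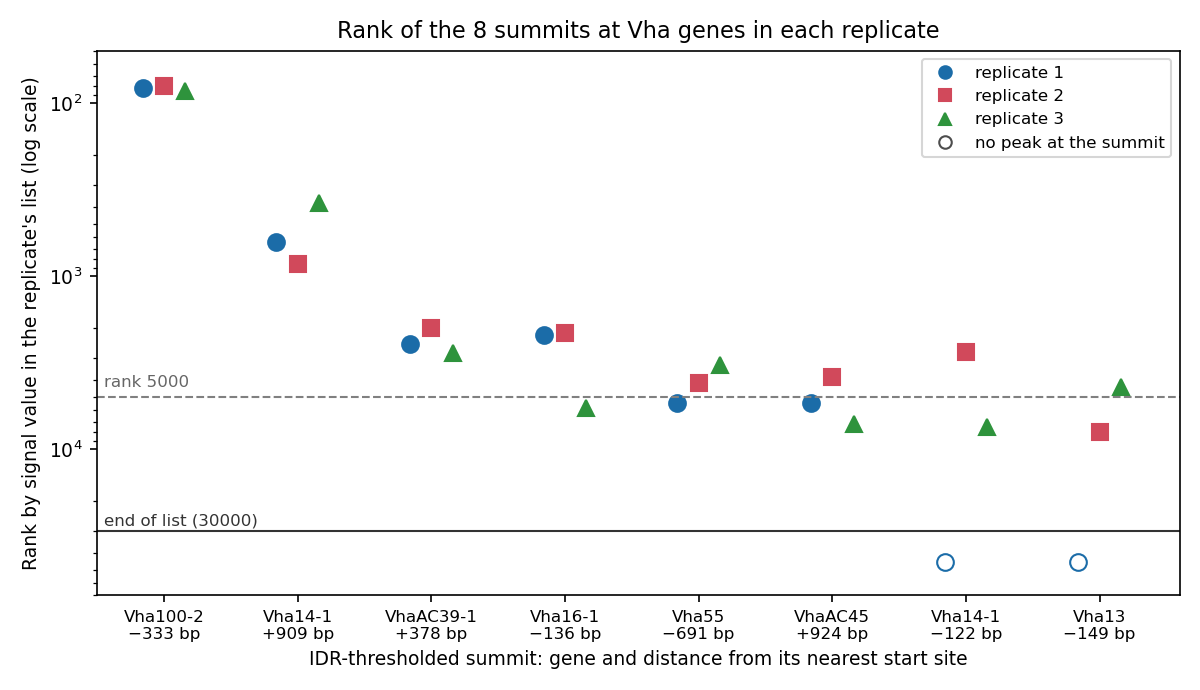
Rank by signal value of the replicate peak at each of the 8 IDR-thresholded summits (vertical axis, log scale, rank 1 is the highest signal) by gene and distance from the gene's nearest TSS in bp (horizontal axis), with 1 marker per replicate and open markers where a replicate listed no peak. Vha100-2 lies at ranks 80 to 86 in all 3 replicates, while the summits of Vha13 and the upstream summit of Vha14-1 have no peak in replicate 1.

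Over the 8 summits, 3 (Vha100-2, the higher Vha14-1 summit and VhaAC39-1) lay inside a top 5000 peak of every replicate, or 37.5%. The same held for 57.4% of the 2365 summits within 1000 bp of any protein-coding TSS. With the whole lists of 30000 peaks, 6 of the 8 summits (75.0%) lay inside a peak of every replicate, against 83.4%. Where a replicate peak matched, its summit lay a median of 33.5 bp and at most 149 bp from the combined one, over 22 matches. At 5 of the 8 summits the nearest protein-coding TSS belonged to the Vha gene, and at 3 it belonged to another gene, namely Vti1b, Gmppa or Snx3. These 3 include the highest and the second highest signal values of the set.

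**Figure D2:**
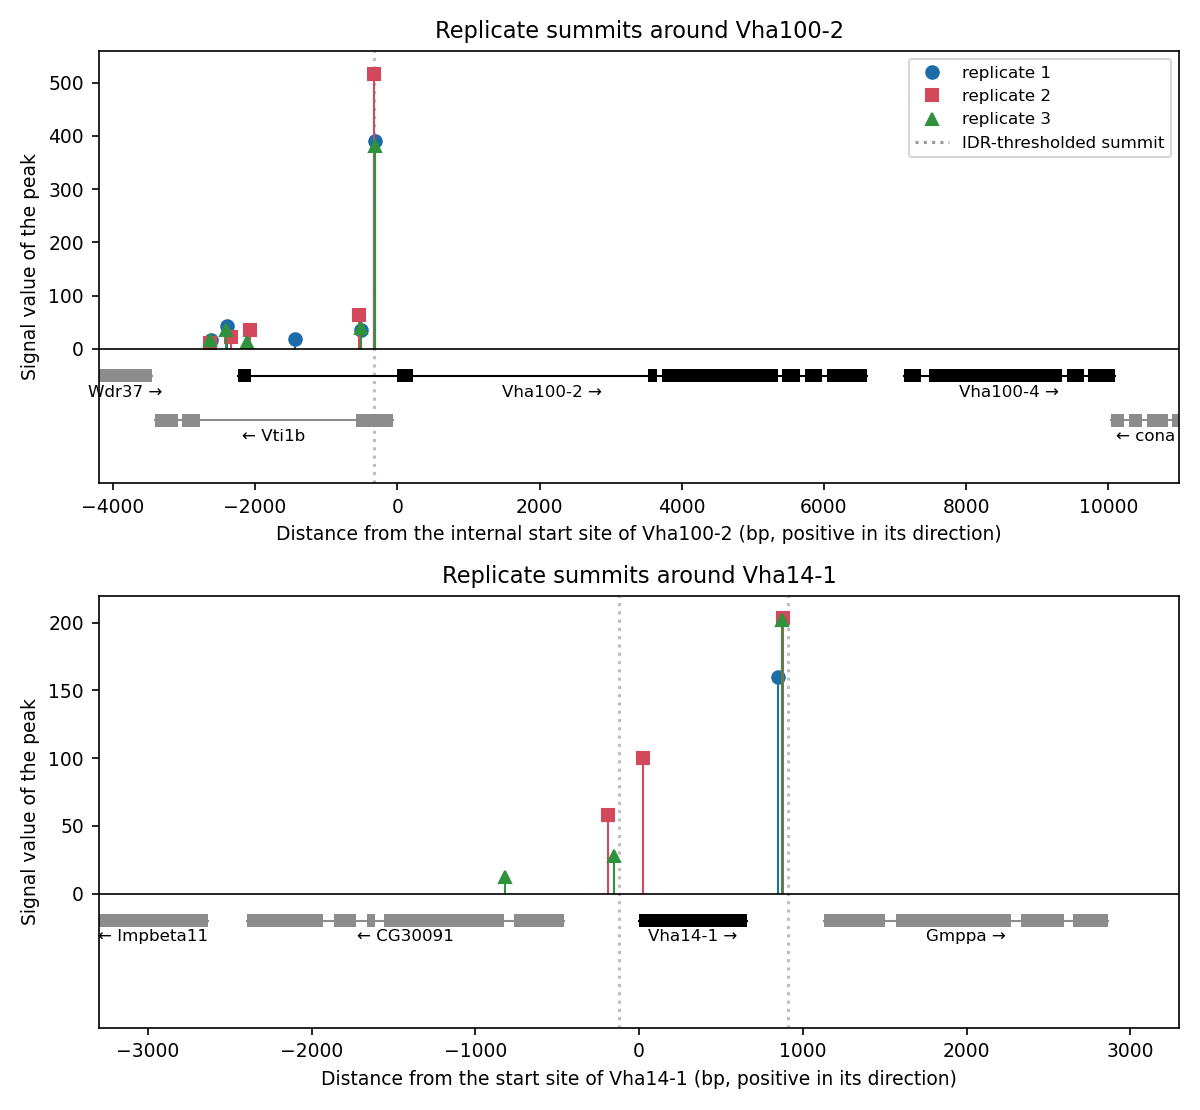
Signal value of each replicate's peaks (vertical axis, authors' units) by distance in bp from the internal TSS of Vha100-2 (upper panel) and from the TSS of Vha14-1 (lower panel), positive in the direction of that gene; boxes are exons, arrows give direction, and dotted lines mark IDR-thresholded summits. The strongest peaks, at −333 bp and 909 bp, lie in the 5′ UTR of Vti1b and between Vha14-1 and Gmppa, and Vha100-4 has no peak.

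The broadly expressed and the restricted paralogues were then set side by side. In the IDR-thresholded list 7 of the 15 broadly expressed genes had a promoter summit, meaning 1 at most 1000 bp from a TSS. Of the 13 restricted genes 0 did, and of the 5 unassigned genes 0 did, beside 16.1% of all protein-coding genes. At that share, classes of 13 and 5 genes would hold few summits or none. Where the nearest TSS had to be that of the Vha gene, 5 of the 7 genes remained, beside 13% of all genes. In the separate replicate lists, a top 5000 promoter summit lay at 4 Vha genes in replicate 1 (13.7% of all genes), 8 in replicate 2 (17.7% of all genes) and 5 in replicate 3 (17.1% of all genes), all of them broadly expressed. The share of Vha genes was 12.1%, 24.2% and 15.2%, with a mean of 17.2% ± 6.31 (SD, n = 3), and that of all protein-coding genes 16.2% ± 2.15 (SD, n = 3). The means differed by less than the SD over replicates. Within the same list, the Vha share was below that of all genes in replicates 1 and 3 and above it in replicate 2. A top 5000 summit was present in all 3 replicates at 3 Vha genes, Vha100-2, Vha14-1 and VhaAC39-1, beside 10.5% of all genes. The classes describe the genes and are not replicates, they were assigned with earlier results known, and no test was made between them.

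**Figure D3:**
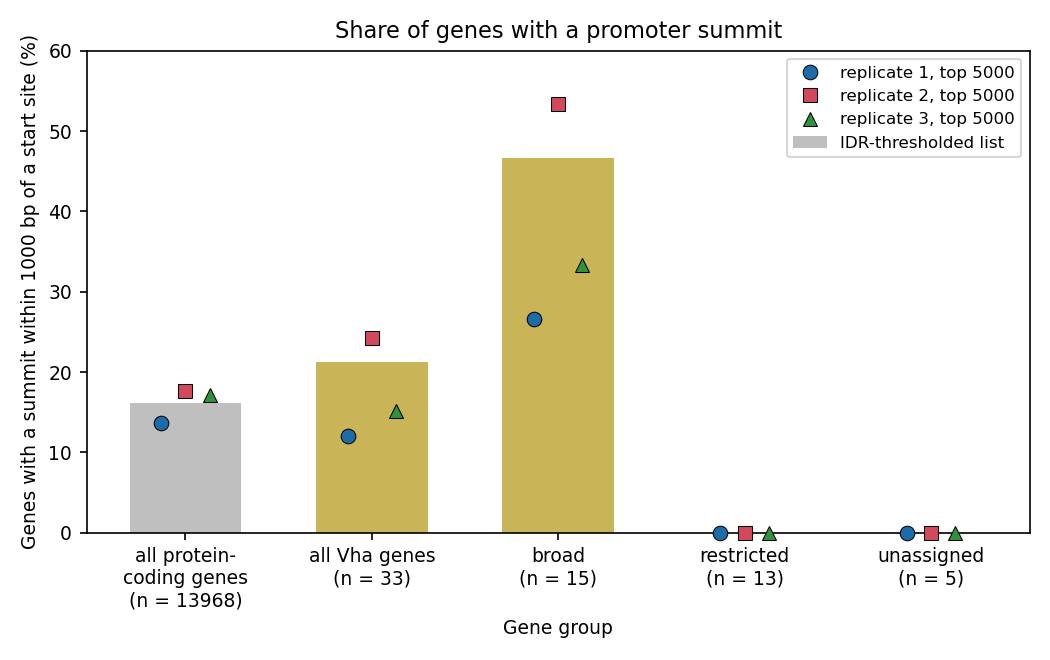
Share of genes with a summit at most 1000 bp from a TSS (vertical axis, percent) for all protein-coding genes, all Vha genes and the 3 expression classes (horizontal axis); bars are the IDR-thresholded list and markers are the top 5000 peaks of each replicate. The broadly expressed class lies above all genes in the bars, at 46.7%, and the restricted and unassigned classes lie at 0 in the bars and in the top 5000 of every replicate.

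The broadly expressed genes differ from the restricted ones in length and in their surroundings. Their median length was 3338 bp, against 1371 bp for the restricted genes and 2164.5 bp for all protein-coding genes. Another gene's TSS lay within 1000 bp of a TSS of 10 of the 15 broadly expressed genes (66.7%) and of 3 of the 13 restricted genes (23.1%), compared with 42.8% of all genes. Among the Vha genes with such a neighbour 5 of 15 had a summit, beside 19.6% of all genes with a neighbour. Among those without, 2 of 18 had a summit, beside 13.4% of all such genes. Within the genes with a neighbour the counts were 5 of 10 broadly expressed and 0 of 3 restricted, and within those without they were 2 of 5 and 0 of 10.

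The number of start sites gave a similar picture. Of the 25 Vha genes with a single TSS, 4 had a summit, beside 11.0% of all such genes. Of the 8 with several TSSs, 3 had a summit, beside 30.2% of all such genes. Among genes with a single TSS the summits were at 4 of 10 broadly expressed and 0 of 11 restricted genes. The part that gene length, neighbours and the number of start sites have in the difference between the classes was not tested further.

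Read by subunit, 9 subunits are encoded by more than 1 Vha gene, and in 5 of these exactly 1 gene had an IDR-thresholded promoter summit. They were Vha100-2 of 5 genes for subunit a, Vha16-1 of 5 for the proteolipid c, VhaAC39-1 of 2 for subunit d, Vha14-1 of 2 for subunit F, and VhaAC45 of 2 for the accessory subunit. No gene of the remaining 4, the catalytic subunit A, the rotor subunit D, the proteolipid c″ and subunit e, had a summit. Of the 5 subunits encoded by 1 gene, B (Vha55) and G (Vha13) had a summit, whereas C (Vha44), E (Vha26) and H (VhaSFD) had none. By sector, 3 of 13 V1 genes and 3 of 18 V0 genes had a summit, beside the 16.1% of all genes.

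Of the 8 broadly expressed genes without an IDR-thresholded summit, 4 had no peak within 1000 bp of a TSS in any replicate. They were Vha36-1 (subunit D), Vha68-1 (subunit A), VhaM9.7-b (subunit e) and VhaSFD (subunit H, which regulates the joining of V1 to V0). Over all protein-coding genes, 58.2% had a peak there in at least 1 replicate. Vha68-2, the other broadly expressed gene of the catalytic subunit A, had a weak peak in every replicate, with signal values of 23.9 (rank 9082), 42.9 (rank 7567) and 23.3 (rank 8852). Their summits in replicates 1, 2 and 3 lay 184 bp after, 168 bp before and 48 bp after the nearest of 5 annotated TSSs. The summit of replicate 3 was thus at another place. Those of replicates 1 and 2 may lie close together, because their nearest TSSs can differ. In the pooled list that gene stood at rank 15715, with a signal value of 40.5.

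Replicate 2 alone held the higher peaks of Vha26 and Vha44. At Vha26, subunit E of the peripheral stalk, a peak with a signal value of 118 ranked 2181 in replicate 2, and no peak was listed in the other two replicates or in the pooled list. At Vha44, subunit C, the highest peak of replicate 2 ranked 4096 with a signal value of 74.2, at 498 bp from the nearest TSS. That of replicate 3 ranked 11823 with a signal value of 17.9, at 105 bp, so the replicates had their summits at different places. VhaPPA1-1 had a single peak, at rank 9786 of replicate 2 with a signal value of 33.0. Both Vha26 and Vha44 thus entered the count of replicate 2, which was the highest of the 3, and neither was in the pooled list.

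Among the 13 restricted genes, 8 had no peak within 1000 bp of a TSS in any replicate: Vha100-1, which acts in neurons, Vha100-3, Vha100-4, Vha16-2, Vha16-3, Vha16-4, Vha16-5 and VhaPPA1-2. These cover paralogues of the V0 subunits a, c and c″ only. A peak of any rank in at least 1 replicate was present at 58.2% of all protein-coding genes, so genes without one are common. Vha68-3, a subunit A paralogue that begins 178 bp past the end of Vha68-2, had a peak within 1000 bp of its TSS in 2 replicates, at rank 29578 in replicate 2 and 12035 in replicate 3. Both peaks lay in the 3′ UTR of Vha68-2, so they cannot be credited to Vha68-3 alone. The other 4 were found in 1 replicate each, Vha14-2 at rank 16494, VhaAC39-2 at rank 20046, Vha100-5 at rank 20440 and Vha36-2 at rank 26847. None of these peaks near a TSS reached the top 10000 of its list. Every broadly expressed gene with a peak near a TSS in some replicate had at least 1 inside the top 10000. Over all protein-coding genes, 19.4%, 27.3% and 25.3% had a top 10000 peak there in replicates 1, 2 and 3. Farther than 1000 bp from a TSS, the body of Vha100-5 held peaks in all 3 replicates, the highest at rank 7964 of replicate 1, in coding sequence, with a signal value of 26.0. Body peaks at lower ranks lay in Vha100-3 in replicate 1 and in Vha68-3 in replicates 1 and 3. None of these body peaks was in the IDR-thresholded list. Of the unassigned genes, Vha36-3 (rank 19094), VhaAC45RP (rank 28033) and VhaM9.7-c (rank 29196) had a peak in 1 replicate each, and VhaM9.7-a and VhaM9.7-d had none.

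At any rank, 19 Vha genes had a peak within 1000 bp of a TSS in at least 1 replicate, beside 58.2% of all genes, and they were 11 broadly expressed, 5 restricted and 3 unassigned genes. In all 3 replicates the count was 7 genes, beside 21.5% of all genes, and all 7 were broadly expressed. Of these, 6 also had an IDR-thresholded summit. Vha68-2 was the seventh, and Vha13 had an IDR-thresholded summit without a peak in replicate 1.

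**Figure D4:**
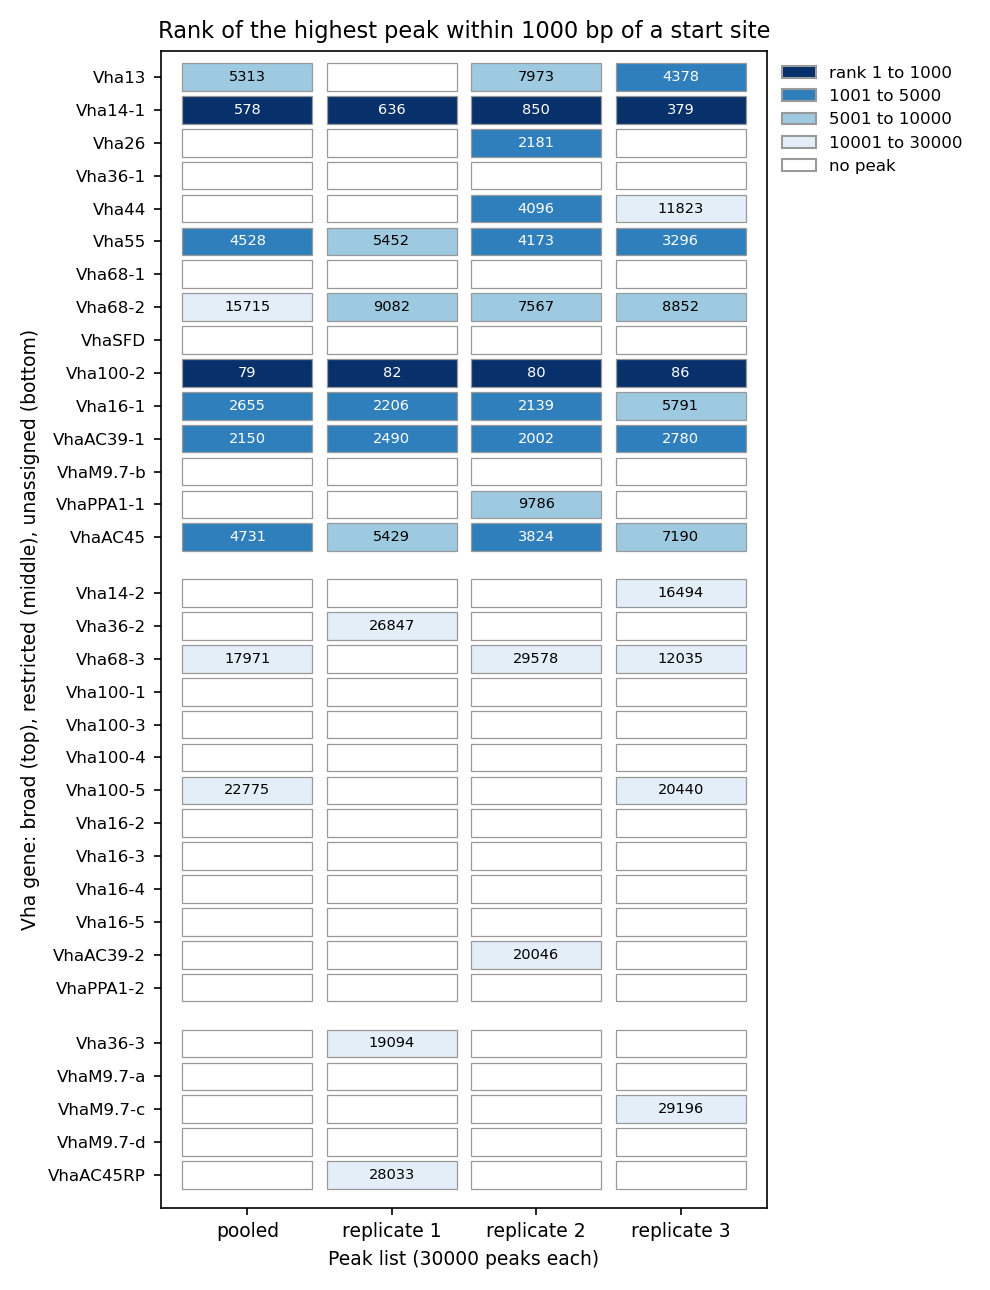
Rank of the highest peak within 1000 bp of a TSS for each of the 33 Vha genes (vertical axis, by expression class) in the pooled list and in each replicate (horizontal axis); darker cells are higher ranks and empty cells have no peak. Peaks at rank 5000 or better appear only among the broadly expressed genes, and Vha26 and Vha44 reach that rank in replicate 2 alone.

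Motifs were searched on both strands within 50 bp of the 8 summits, with exact matches. The nuclear receptor element AGGTCA was found at 1 summit, that of Vha16-1, 13 to 18 bp from the summit, and at 5.35% of all 5425 IDR-thresholded summits on the arms. Its direct repeat with a spacing of 1 base (DR1), the element known for COUP-TF receptors, was at none of the 8 and at 0.0184% of all summits. GATAA was found at 3 summits, those of VhaAC45, the higher Vha14-1 summit and Vha100-2, where it spanned the summit itself as capitalised above, and at 31.1% of all summits. GAGAG was found at 2, Vha16-1 and Vha100-2, and at 14.0% of all summits. No match lay within 50 bp of any of the 8 summits for the M-box-like TCATGTGA (0.369% of all), the CLEAR-like TCACGTGA (0.0922%), the E-box CACGTG (0.848%), which lies within the CLEAR-like site, the DRE TATCGATA (0.406%) or the AP-1 site TGACTCA (0.977%).

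The promoters themselves, from 250 bp before to 50 bp after the outermost TSS, held the M-box-like site at 4 of the 33 Vha genes, Vha14-1, VhaAC45, VhaM9.7-b and VhaPPA1-1, beside 0.523% of the 13968 promoters. The CLEAR-like site was found at Vha44 alone, beside 0.172%. Either site was present at 5 of the 15 broadly expressed genes and at no other Vha gene, beside 0.694% of all promoters. Vha14-1 and VhaAC45 had both an M-box-like site and an IDR-thresholded summit, and the other 3 genes had a site and no such summit. The element AGGTCA was at 2 of the 33 promoters, those of Vha100-1 and VhaAC45RP, beside 5.88% of all, and neither gene had a summit. GATAA was at 23 of the 33, beside 55.1% of all. By class it was at 9 of the 15 broadly expressed, 12 of the 13 restricted and 2 of the 5 unassigned genes. A match is a description of the letters in the window and does not show that a factor binds there.

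Other genes, mainly of lysosomes and endosomes, V-ATPase assembly, and chloride or cation/proton transport, were taken from a list of 28 symbols. Of these 27 matched the annotation, and 7 of the 27 (25.9%) had an IDR-thresholded promoter summit, beside the 16.1% of all genes given above. The highest were Arl8, a small GTPase of lysosome movement, with a signal value of 409 at 647 bp, Gba1b, a glucocerebrosidase, with 381 at 149 bp, and CG7071, a homologue of the V-ATPase assembly factor TMEM199, with 348 at 127 bp. These 3 summits lay in the top 5000 of every replicate. The fourth, Npc2a of lysosomal sterol transport, had 174 at 528 bp, with Got2 as the gene of the nearer TSS. It too lay in the top 5000 of every replicate. The rest of the 7 had signal values of 140 to 147 and lay in the top 5000 of only 1 or 2 replicates. Most of those were nearer to another gene's TSS. The genes car, cathD and ClC-a were among those without one. ATP6AP2, an accessory subunit of the pump that the Vha symbol does not cover, had no summit, nor did Mitf.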

How the data were processed

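Anti-GFP ChIP-seq of svp-eGFP white prepupae was used as the dm6 peak lists that the authors deposited for each of 3 biological replicates, pooled, and IDR-thresholded. Per the deposited manifests, the alignments of a replicate and a control file shared by all 3 gave that replicate's list. The aligner, peak caller, IDR threshold and scaling were not given in the sources used here. Sequencing depth is unknown, so intervals cover counting over genes only. Each replicate and pooled list holds 30000 peaks. The signal value and the −log10 q-value of each peak are the authors' deposited values. The signal value ranked peaks within a list, and the −log10 q-value was only tabulated.

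Summits were placed, counting from 1, on the Ensembl 115 annotation (FlyBase release 6.54) and RefSeq release 6 sequence, within 1000 bp of any annotated TSS or inside the gene. A replicate supported an IDR-thresholded summit where that summit lay inside one of its top 5000 peaks. In the counts per gene, the replicate's own summit was placed. The IDR-thresholded list equals the 5443 highest pooled peaks, so using the pooled list instead changes nothing. Python 3.11.15 with numpy 2.4.6 and scipy 1.17.1 was used, and the steps were tested on simulated data.

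Every Vha gene is named. Those with an IDR-thresholded summit are described by each summit, the rest by class and best peak. Of the lysosome list, the 4 genes with the highest promoter summits and the first 3 without one in alphabetical order are named, and of other genes those with a nearer or shared TSS, ATP6AP2 and Mitf. The Vha genes, the expression classes and the lysosome list were chosen with earlier results of these data known. With a single group and no control among the samples used here, beyond the control file that entered the peak calls, no comparison between groups and no test was made. Lists on dm3 were not used.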

Additional observations from a re-analysis of the deposited data

How the results depend on the processing

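The count of Vha genes with an IDR-thresholded summit, 7, was 5 with a window of 500 bp (12.6% of all genes) and 9 with 2000 bp (21.1% of all genes), which added Vha44 and Vha68-1. Against the outermost TSS it was 6 (14% of all genes), and where the nearest TSS had to be that of the Vha gene it was 5 (13%). It was 4 (12.1% of Vha genes) with the upper 50% of signal values, beside 10.1% of all genes, and 3 (9.09%) with support in the top 5000 of all 3 replicates, beside 10% of all genes. With gene bodies these counts were again 4 and 3, beside 13.5% of all genes in both settings, so the Vha share was then below that of all genes. Requiring support from the remaining pair, with each replicate left out in turn, gave 3 to 4 genes (9.09 to 12.1%), beside 10.8 to 12.2% of all genes, and with gene bodies the same 3 to 4, beside 14.6 to 16% of all genes. The restricted genes stood at 0 in every setting tried for the comparison of classes, in which the broadly expressed genes numbered 3 with support in all 3 replicates and 3 to 4 with a replicate left out. The mean share of Vha genes per replicate was 26.3% with the top 10000 peaks, beside 24.0% of all genes, and 36.4% with all 30000, beside 39.3%. With a replicate left out it was 13.6 to 19.7%. Summits supported by all 3 replicates numbered 6 with the top 10000 and 6 with the whole lists. The count of the lysosome list was 5 with a window of 500 bp, beside 12.6% of all genes, and 8 with 2000 bp, beside 21.1%. Within 100 bp of the summits GATAA was at 5, beside 49.2% of all summits, and the M-box-like site at 1 (VhaAC39-1), beside 0.664%. No paired comparison between groups was possible because the labels give a single group. With lists of fixed length and no read counts, a gene without a peak is one with no peak in the list. Its signal, and why no peak was listed, are not known.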
